A study of Mus musculus with 2 samples.

Results

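The 31 genes described here encode glycolytic enzymes, glucose and lactate transporters, pyruvate dehydrogenase kinases, and targets known to be induced when oxygen is scarce. They were picked by gene symbol out of the 32245 symbols in the deposited matrices, and their unique molecular identifiers (UMIs, each standing for 1 captured transcript) were summed over barcodes with at least 1000 UMIs in each library and marker-gated class. The series holds droplet single-cell RNA sequencing of whole dissociated mouse retina at postnatal day 7. The control library came from mice labelled Mettl14 fl/fl or fl/wt, with no Cre listed. The other library, called Mettl14-cKO, came from age-matched Mettl14 fl/fl;Chx10-Egfp/Cre mice, so floxed Mettl14 alleles are present in both groups. Mettl14 encodes a subunit of the enzyme that writes N6-methyladenosine on RNA. The Chx10-Egfp/Cre transgene is driven by a promoter of retinal progenitors and bipolar cells and is known to act in a mosaic of progenitors, so retinal cells may escape it, and astrocytes, microglia and vessels arise from other lineages. The labels give neither the number of animals in a library nor their sex. Each genotype has 1 library, so no difference below has a replicate check, no test between genotypes was possible and no p-value is given. The question that the design puts to these genes is how their transcript levels compared between the libraries, class by class.

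Glycolysis splits glucose into pyruvate in the cytosol, and lactate dehydrogenase turns pyruvate into lactate while restoring the cofactor that the pathway consumes. Retina is known for making lactate even when oxygen is available, with photoreceptors as heavy users of glucose and Müller glia as its radial support cells, which take glucose from vessels and can exchange lactate with neurons. Many genes of the pathway are transcriptional targets of the hypoxia-inducible factors, as are the mitophagy receptor Bnip3, the angiogenic ligand Vegfa and the other hypoxia targets in the list.

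After the UMI minimum, 11426 control and 13502 Mettl14-cKO barcodes remained, with medians of 3487 and 3212 UMIs. The gates assigned 72.2% and 59.6% of them to 1 class, while 16.9% and 31.1% passed no gate and 10.9% and 9.31% passed several; 57 barcode sequences occurred in both libraries. The 7 main classes, those with at least 100 barcodes in each library, were rod (3773 control and 2507 Mettl14-cKO barcodes), cone (394 and 320), bipolar (1449 and 893), amacrine (1163 and 1551), ganglion (116 and 212), Müller glia (892 and 1349) and neurogenic (290 and 807), the last gated on Neurog2 and other genes of cells leaving the progenitor state. The targeted gene stood lower: Mettl14 was at 27.1 CPM (UMIs scaled to a total of 1000000 per library or class; 95% interval 25.7 to 28.5) in control barcodes and 14.5 (13.5 to 15.5) in the Mettl14-cKO library, and it was lower in each main class. The cone gate did not separate cones from rod RNA, since the 8 rod markers summed to 26852 CPM there against 29069 in rods of the control library, beside cone markers at 7325 and 840 in the same gates, so a cone-gate value cannot be read as that of cones alone. Levels below are CPM of the class with exact Poisson 95% intervals, ratios are Mettl14-cKO over control on the log2 scale with exact conditional intervals, and both cover counting error only. A gene counts as measured in a class with at least 100 UMIs over both libraries, and as lower or higher when its ratio is 1.5-fold or more from 1.

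The members stood lower in the Mettl14-cKO library in bipolar cells, Müller glia and neurogenic cells, with fewer such members in amacrine cells and 1 in ganglion cells. In the bipolar class 16 of 28 measured members were lower and 0 higher, where 10.0% of all 8696 measured genes were lower and 10.2% higher. In Müller glia 13 of 26 were lower and 1 higher, against 8.51% and 14.6% of all 8074 measured genes. In the neurogenic class 11 of 23 were lower and 0 higher, against 9.96% and 13.9% of 6196 genes. The members' median log2 ratios in these classes were -0.63, -0.50 and -0.50, beside medians over all measured genes of -0.04, 0.05 and -0.00.

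In each of the remaining main classes a smaller share of the measured members was lower, though amacrine cells also stood above their background. The amacrine share was 25.9%, and the members' median log2 ratio there was -0.36 beside 0.04 over all measured genes. Amacrine cells had 7 of 27 measured members lower and 1 higher, beside 4.59% and 9.34% of all measured genes; under a stricter gate that asks for 1 more marker these were 4 and 0 of 27, beside 4.44% and 8.65%. Rods had 4 of 28 lower and 2 higher, where 10.1% of all measured genes were lower and 11.5% higher, so the share of rod members called was near the background. The cone gate had 3 of 26 lower and 0 higher beside 8.56% and 7.71%. Ganglion cells had 1 of 19 lower and 0 higher beside 3.01% and 5.92%. The members' median log2 ratios there were -0.26 in the cone gate and 0.04 in ganglion cells, beside -0.07 and 0.01 over all measured genes. Over all barcodes together, 4 of 31 members were lower and 1 higher beside 9.82% and 12.1%, although the libraries hold the classes in different proportions. The median log2 ratio of members over all barcodes was -0.38, beside -0.02 over all measured genes, and 28 of the 31 ratios were below 1. With class levels weighted by the control's mix of classes, 7 members were lower, but the share of all genes was not computed for that weighting.

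**Figure D1:**
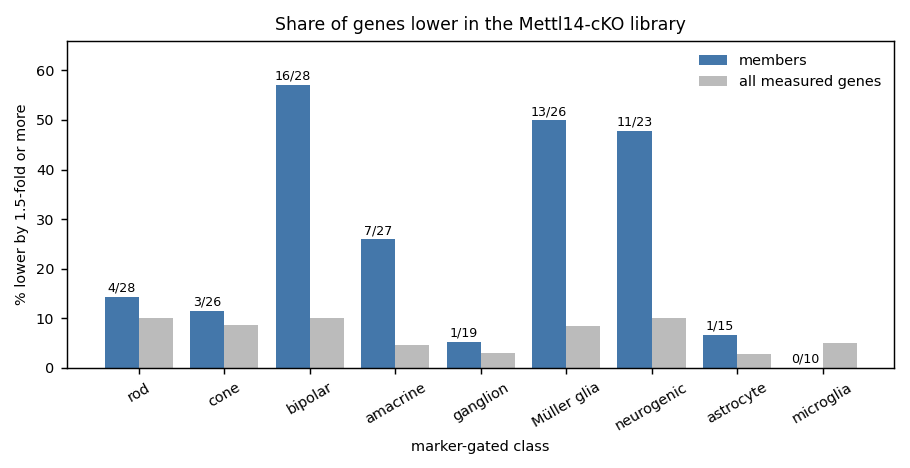
Share of measured members (blue) and of all measured genes (grey) that were lower by 1.5-fold or more in the Mettl14-cKO library, in percent on the vertical axis, for each marker-gated class on the horizontal axis; the figures over the bars are members lower of members measured. The blue bars of the bipolar (16 of 28), Müller glia (13 of 26) and neurogenic (11 of 23) classes stand far above their grey bars, and those of rods and cones stand near them.

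The summed UMIs of all 31 genes describe the classes without any call. In bipolar cells they made up 1.38% of the UMIs in the control library and 0.890% in the Mettl14-cKO library, and in Müller glia 1.38% and 0.978%. The neurogenic class went from 1.13% to 0.735%, and amacrine cells from 0.968% to 0.738%. Rods differed less, with 1.06% and 0.926%. Ganglion cells were the exception among the main classes, with 0.864% in control barcodes and 0.917% in Mettl14-cKO barcodes.

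**Figure D2:**
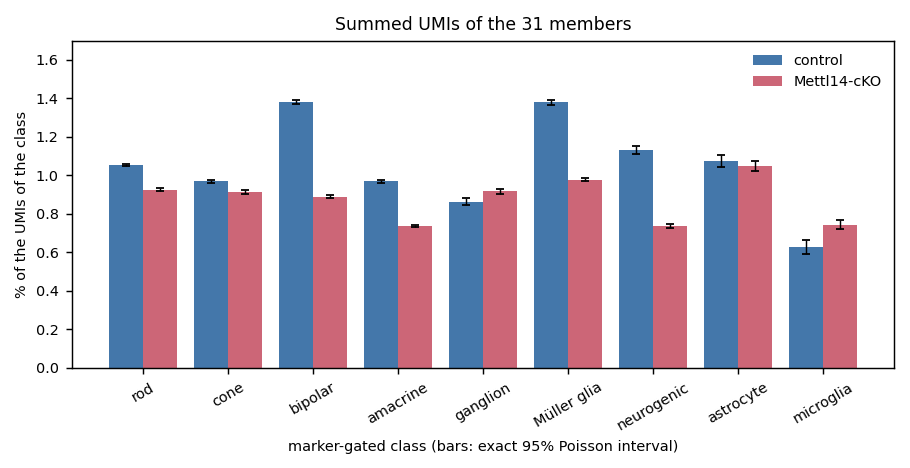
Summed UMIs of the 31 members as a percentage of all UMIs of the class on the vertical axis, for the control (blue) and Mettl14-cKO (red) library, by marker-gated class; bars have exact 95% Poisson intervals. The Mettl14-cKO bar is the shorter one in 6 of the 7 main classes, furthest in bipolar cells (1.38% against 0.890%), and the taller one in ganglion cells and microglia.

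Other measures also differed between the libraries, in the bipolar, Müller glia and neurogenic classes and in others. The class's own markers summed to 7094 CPM in control and 3917 in Mettl14-cKO bipolar barcodes, and to 23652 and 12709 in Müller glia, so the gated cells of these classes differed between libraries in their defining genes as well. In the neurogenic class its own markers summed to 2696 and 2473, but the Müller glia markers to 9726 in control and 3126 in Mettl14-cKO barcodes. Ribosomal protein genes made up 11.2% and 13.5% of UMIs in bipolar cells, 10.8% and 14.99% in Müller glia and 13.8% and 17.8% in the neurogenic class. Rods, where members called at 1.5-fold were near the background, had own markers at 29069 and 20028 CPM and ribosomal shares of 9.28% and 10.9%. Ganglion cells had 11244 and 9641 CPM with 6.97% and 6.41%. Amacrine cells had 2783 and 2933 CPM with 9.72% and 8.74%, and the cone gate 7325 and 7289 CPM with 8.96% and 10.0%. With mitochondrial and ribosomal protein genes left out of the total, 15 bipolar, 11 Müller glia and 11 neurogenic members were lower. Of all measured genes, 9.43%, 7.07% and 8.30% were lower in these classes under that scaling. In the neurogenic class 61.0% of control and 38.0% of Mettl14-cKO barcodes also passed the Müller glia gate; 11 of 20 measured members were lower among those that did not and 10 of 18 among those that did. Bipolar barcodes with a UMI of Prkca, a marker of rod bipolar cells, had 14 of 26 measured members lower, and those without one 15 of 24. The share of all measured genes that were lower was not computed within these splits, so their counts have no background beside them. These splits were chosen after the data were seen, and the part of the shifts in class markers and ribosomal share in the lower levels was not tested.

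A set of 9 members was lower in all 3 of the bipolar, Müller glia and neurogenic classes: Pfkl, Pfkp, Aldoa, Aldoc, Tpi1, Pgk1, Eno1, Slc16a3 and Bnip3. Of the others, 10 were lower in 1 or 2 of these classes, so 19 of the 31 were lower in at least 1 of them. The share of all measured genes that were lower in all 3 classes, or in at least 1, was not computed. The overlap can therefore not be read as particular to the members. The 3 classes come from the same pair of libraries and are not independent of each other. No member was lower in every main class in which it was measured. Among the 9, Slc16a3 and Tpi1 did not keep all their calls under other scalings. With mitochondrial and ribosomal protein genes left out of the total, Slc16a3 was within 1.5-fold in bipolar cells and Müller glia. Tpi1 was within it in Müller glia under that scaling.

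The stretch upstream of the gene start is shown for 5 of these members and for Ddit4, which stood higher. A shared promoter motif is the sequence feature known for genes of the hypoxia response. The 5 are a selection from the set, and the counts of the members not printed follow the sequences. The motif searched is the core of the hypoxia response element, ACGTG or GCGTG, on either strand (CACGT and CACGC when read on the printed strand; CACGTG holds a core on both strands), and capitals mark each match. Sequences are from RefSeq on GRCm38.p6, on the gene's strand, cut where any annotated transcript begins. They lie at chr11:78322823-78322967 (plus strand, Aldoc), chr13:6648778-6649021 (minus, Pfkp), chr4:150236458-150236707 (plus, Eno1), chrX:106186850-106187099 (plus, Pgk1), chr7:138909520-138909756 (minus, Bnip3) and chr10:59951835-59952020 (minus, Ddit4).
Aldoc: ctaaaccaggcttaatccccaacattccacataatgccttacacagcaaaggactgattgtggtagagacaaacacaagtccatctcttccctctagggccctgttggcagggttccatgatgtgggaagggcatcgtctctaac
Pfkp: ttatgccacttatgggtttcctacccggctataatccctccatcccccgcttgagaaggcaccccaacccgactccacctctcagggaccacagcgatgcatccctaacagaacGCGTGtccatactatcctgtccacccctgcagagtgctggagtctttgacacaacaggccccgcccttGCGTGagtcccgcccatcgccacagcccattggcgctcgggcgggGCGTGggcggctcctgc
Eno1: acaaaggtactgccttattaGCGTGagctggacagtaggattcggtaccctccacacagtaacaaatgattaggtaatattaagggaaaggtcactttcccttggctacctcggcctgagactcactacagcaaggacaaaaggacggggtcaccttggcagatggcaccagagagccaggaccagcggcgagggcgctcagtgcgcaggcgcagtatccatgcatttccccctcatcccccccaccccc
Pgk1: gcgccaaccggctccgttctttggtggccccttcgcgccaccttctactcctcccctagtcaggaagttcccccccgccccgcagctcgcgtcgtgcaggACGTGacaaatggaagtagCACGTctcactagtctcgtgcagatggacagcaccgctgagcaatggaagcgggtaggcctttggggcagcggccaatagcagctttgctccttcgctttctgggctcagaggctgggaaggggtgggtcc
Bnip3: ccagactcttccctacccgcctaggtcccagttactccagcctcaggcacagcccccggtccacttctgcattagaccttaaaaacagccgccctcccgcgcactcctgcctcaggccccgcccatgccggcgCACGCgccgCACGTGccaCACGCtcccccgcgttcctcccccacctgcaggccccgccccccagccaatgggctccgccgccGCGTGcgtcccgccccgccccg
Ddit4: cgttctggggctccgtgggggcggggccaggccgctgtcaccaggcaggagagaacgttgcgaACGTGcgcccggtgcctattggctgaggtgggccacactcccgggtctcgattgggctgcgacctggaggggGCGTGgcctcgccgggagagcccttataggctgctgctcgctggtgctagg

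The printed stretch of Pfkp holds 3 cores, all GCGTG on the printed strand. Bnip3 holds 5, among them a CACGTG, Pgk1 and Ddit4 2 each, Eno1 1 and Aldoc 0 within the stretch shown. Among members of the set of 9 that are not printed, Slc16a3 held 2 cores and Pfkl 1 in the 250-base window nearest the gene start. Aldoa and Tpi1 held 0 there. Of the 31 members 29 had a window in the table, and 22 of them (75.9%) held at least 1 core in the 250 bases before the RefSeq start nearest the annotated gene start. That RefSeq start lay within 250 bases of the gene start for 23 of them, of which 17 held a core, and up to 5857 bases away for the other 6, of which 5 did. Aldoc counts among the 22 through a match in the part of its window that is not printed, which lies past its gene start. The same held for 38.6% of all 32851 windows and for 55.2% of the 9082 windows in the middle range of the members' GC content, as the members' windows are rich in GC (median 62.8% against 52.4%). A match describes letters and is not evidence of binding, and Ddit4, which was higher, holds the core as well as genes that were lower.

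Hexokinases trap glucose in the cell by phosphorylation. Hk1, the common isoform of neurons, was measured in all 7 main classes and in none was it lower or higher by 1.5-fold. Its level in rods was 209 and 154 CPM in the control and Mettl14-cKO library, and in Müller glia 47.2 and 45.4. Hk2, an isoform bound to mitochondria that is typical of photoreceptors, was lower in rods. It gave 135 UMIs in control rods and 25 in Mettl14-cKO rods, or levels of 9.59 (95% interval 8.04 to 11.4) in the control library and 2.60 (1.68 to 3.83) in the Mettl14-cKO library, a log2 ratio of -1.89 (95% interval -2.56 to -1.26). In the cone gate Hk2 stood higher than in rods and at the same level in both libraries, 42.3 and 43.1. That level is above the 8.86 CPM that rod RNA would bring if it entered the control cone gate in proportion to the rod markers.

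Gpi1, which converts glucose phosphate to fructose phosphate, stayed within 1.5-fold in all 7 main classes, with log2 ratios from -0.33 in bipolar cells to 0.25 in rods. The phosphofructokinases catalyse the committed step, and here the platelet-type subunit Pfkp moved furthest. In Müller glia Pfkp stood at 195 (95% interval 180.2 to 211) in the control library and 62.4 (55.4 to 70.2) in the Mettl14-cKO library, a log2 ratio of -1.65 (95% interval -1.85 to -1.44). In the neurogenic class its levels were 209 and 62.1 (log2 ratio -1.75), and in bipolar cells 106 and 37.6 (-1.50). Rods had 37.4 and 22.4 (-0.74, and -0.53 as a mean over cells, which is within 1.5-fold) and the cone gate 28.5 and 13.2 (-1.11). Pfkp was thus lower in 5 of 7 main classes. Amacrine cells, with 78.1 and 77.9, and ganglion cells, with 156 and 166, had intervals of the ratio that include 1. Among neurogenic barcodes the log2 ratio was -2.05 in those that did not pass the Müller glia gate and -1.27 in those that did.

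The liver-type subunit Pfkl followed in the same 3 classes, with 149.6 and 75.9 CPM in bipolar cells, 174 and 100.3 in Müller glia and 133 and 70.7 in the neurogenic class. The muscle-type subunit Pfkm, highest in ganglion cells at 60.6 and 46.2, was neither lower nor higher in any of the 6 main classes where it was measured.

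Aldolases split the fructose phosphate into a pair of triose phosphates. Aldoa, the general isoform, gave 1200 and 538 CPM in bipolar cells, 1015 and 578 in amacrine cells, 1008 and 592 in Müller glia and 887 and 418 in the neurogenic class, log2 ratios of -1.16, -0.81, -0.77 and -1.08. It is lower in each of them, while ganglion cells held it at 1254 and 1181. Rods, its top class in the control library, had 1309 and 930.2, a difference of -0.49 that falls short of 1.5-fold.

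Aldoc (chromosome 11, 78322968 to 78327781, plus strand), the brain isoform and a marker of glia, was lower in 6 of 7 main classes. In rods it gave 705 control and 112 Mettl14-cKO UMIs, levels of 50.1 (95% interval 46.5 to 53.9) in the control library and 11.6 (9.58 to 14.0) in the Mettl14-cKO library. The log2 ratio in rods was -2.11 (95% interval -2.41 to -1.82), the lowest of any member in a main class. The UMIs came from 601 of 3773 control and 107 of 2507 Mettl14-cKO rod barcodes, with at most 4 in 1 barcode. Müller glia, where Aldoc is highest among the main classes, had 497 and 279, a log2 ratio of -0.83.

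Aldoc levels in neurons were far below those in glia. Bipolar cells had 25.4 and 7.19 CPM (log2 ratio -1.82), amacrine cells 47.3 and 17.9 (-1.40) and the cone gate 41.3 and 12.5 (-1.72). The neurogenic class had 89.2 and 35.5 (-1.33), but there the ratio was -0.27 among barcodes that did not pass the Müller glia gate and -0.88 among those that did. If Müller glia RNA entered rods in proportion to the Müller glia markers, it would bring 7.65 CPM of Aldoc to control rods and 17.2 to Mettl14-cKO rods. The level measured in Mettl14-cKO rods was below its estimate, so that estimate is too high. The level in control rods was above its estimate. How much of either level came from Müller glia RNA was not tested. Ganglion cells held Aldoc at 49.2 and 50.6, with no difference beyond counting error.

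Tpi1 interconverts the triose phosphates. It was highest in bipolar cells in both libraries, at 1103 and 654 CPM (log2 ratio -0.75). Tpi1 was also lower in Müller glia (656 and 434) and the neurogenic class (617 and 380.5). The Müller glia call did not hold with mitochondrial and ribosomal protein genes left out of the total.

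Among the enzymes of lower glycolysis, Gapdh and Pkm were the steady ones. Gapdh, which oxidises triose phosphate, ranged in log2 ratio from -0.54 in bipolar cells (4018 and 2763 CPM) to 0.20 in ganglion cells (2798 and 3213). Pkm, the pyruvate kinase, ranged from -0.30 in bipolar cells to 0.08 in Müller glia. Neither reached 1.5-fold in any main class.

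Pgk1 yields the first ATP of the pathway. It gave 543 and 333 CPM in bipolar cells, 583 and 371 in Müller glia and 552 and 276 in the neurogenic class, lower in each. In ganglion cells its level was 284 in both libraries. Pgam1, the phosphoglycerate mutase, was lower in 1 main class, bipolar (1555 and 996, log2 ratio -0.64), with log2 ratios of -0.18 in Müller glia and 0.32 in ganglion cells.

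Eno1, the general enolase (chromosome 4, 150236721 to 150248879, plus strand), was lower in 4 main classes. Müller glia are by far its highest class: 10839 control and 7876 Mettl14-cKO UMIs gave levels of 3460 (95% interval 3395 to 3526) in the control library and 1744 (1705 to 1782) in the Mettl14-cKO library, a log2 ratio of -0.99 (95% interval -1.03 to -0.95). The neurogenic class had 1620 and 611 (-1.41), bipolar cells 767 and 378 (-1.02) and amacrine cells 579.6 and 339 (-0.77). Eno1 is the one measured enzyme whose ratio lay below 1 with an interval clear of 1 in ganglion cells too, at 354 and 240.2 (-0.56), without reaching 1.5-fold; as a mean over cells its log2 ratio there was -0.90, which is past it. A near-identical copy, Eno1b, is counted on a row of its own with 1208 control and 1082 Mettl14-cKO UMIs, so reads between them could have been split or dropped. Eno2, the neuronal enolase, is highest in ganglion cells (154 and 133) and was lower in bipolar cells (45.5 and 24.0, log2 ratio -0.92).

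Lactate dehydrogenase closes the pathway. Ldha, whose subunit favours making lactate, was highest in rods in both libraries, with 38644 and 21928 UMIs or 2746 and 2277 CPM, a log2 ratio of -0.27. It was lower by 1.5-fold in bipolar cells alone among the main classes (1221 and 799, -0.61), and stood at 1116 and 839 in Müller glia (-0.41). The bipolar call of Ldha did not hold when ratios were centred on the median gene. Ldhb, whose subunit favours lactate use, differed more. Müller glia had 597 (95% interval 570.2 to 625) in the control library and 304 (289 to 321) in the Mettl14-cKO library, a log2 ratio of -0.97 (95% interval -1.07 to -0.87). The neurogenic class had 587 and 231 (-1.34) and amacrine cells 398 and 263 (-0.59). Müller glia were the top class of Ldhb in the control library and ganglion cells in the Mettl14-cKO library, where Ldhb stood at 511 after 432 in the control.

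**Figure D3:**
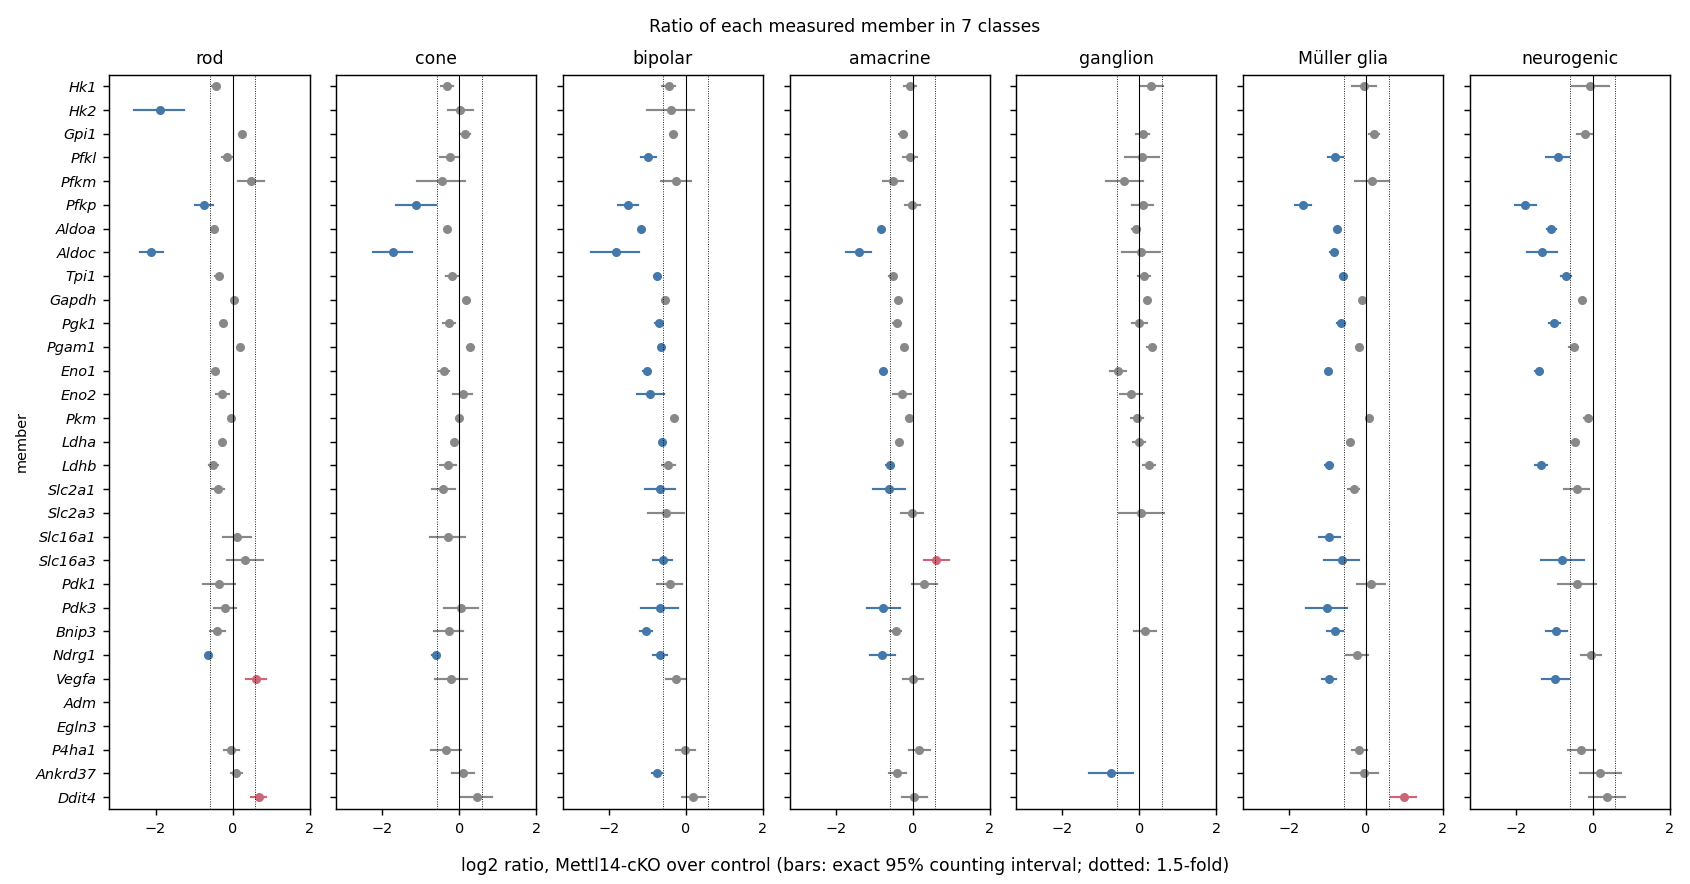
Log2 ratio of Mettl14-cKO over control (horizontal axis) for each measured member (rows) in the 7 main classes (panels), with exact 95% counting intervals; blue marks lower and red higher by 1.5-fold or more, dotted lines mark 1.5-fold, and rows without a point were not measured. The blue points gather in the bipolar, Müller glia and neurogenic panels, from Pfkl to Eno1 and again at Bnip3, and the ganglion panel has 1 blue point, Ankrd37.

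The share of 1 paralog within the UMIs of its group needs no scaling by library, and as each UMI tags 1 transcript end no scaling by length was made. In Müller glia Pfkp made up 49.9% of phosphofructokinase UMIs in the control (exact Clopper-Pearson 95% interval 47.0% to 52.7%) and 33.3% (30.1% to 36.6%) in the Mettl14-cKO library. In the neurogenic class its share was 57.6% and 41.9%, in bipolar cells 37.6% and 27.6%, and in rods 26.7% and 18.6%. The intervals of the libraries are apart in each of these classes. In amacrine cells (37.0% and 40.5%) and ganglion cells (56.0% and 59.9%) they overlap.

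Ldhb's share of lactate dehydrogenase UMIs went from 34.9% to 26.6% in Müller glia and from 33.5% to 21.5% in the neurogenic class. In ganglion cells it was 45.7% and 50.1%, and in bipolar cells 10.8% and 11.9%, with overlapping intervals in both. Aldoc's share of aldolase UMIs in rods was 3.69% and 1.23%, with intervals apart. In Müller glia, by contrast, Aldoa and Aldoc were lower in step, and Aldoc held 33.0% and 32.0%. Eno2's share of enolase UMIs was 9.33% and 12.7% in amacrine cells, again with intervals apart, while its own level there stood at 59.7 and 49.5.

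**Figure D4:**
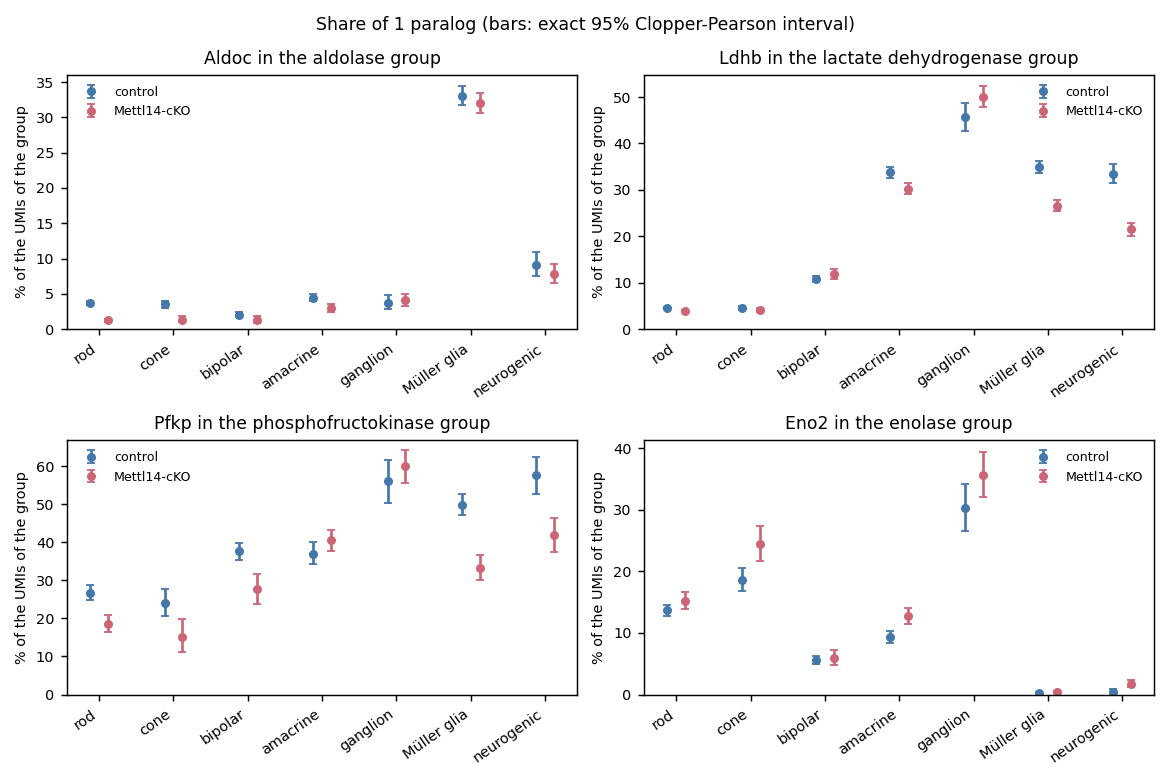
Share of Aldoc, Ldhb, Pfkp and Eno2 in the summed UMIs of their paralog group (vertical axis, percent) in the control (blue) and Mettl14-cKO (red) library, by main class, with exact 95% Clopper-Pearson intervals. The Pfkp share is lower in Mettl14-cKO Müller glia (49.9% against 33.3%) and neurogenic cells and not in ganglion cells, and the Aldoc share of Müller glia is level (33.0% against 32.0%).

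Slc2a1 encodes the main glucose transporter of glia and vessel walls, and Slc2a3 that of neurons. Slc2a1 was highest in Müller glia, with 253 and 202 CPM and a log2 ratio of -0.33. It was lower in bipolar cells (32.3 and 20.2) and amacrine cells (22.1 and 14.4), both at low levels, of which Müller glia RNA in proportion to the markers would bring 5.66 and 7.05 in the Mettl14-cKO library. Slc2a3 was measured in 3 main classes and differed in none of them by 1.5-fold, for example 36.2 and 35.7 in amacrine cells.

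The lactate transporters did not move as a pair. Slc16a1, a carrier of glia and endothelium, was highest in Müller glia and lower there in the Mettl14-cKO library, at 83.0 (95% interval 73.2 to 93.7) in the control library and 42.7 (36.9 to 49.2) in the Mettl14-cKO library, a log2 ratio of -0.96. Slc16a3, the low-affinity exporter of glycolytic cells, was highest in bipolar cells. It was lower in bipolar cells (74.96 and 49.5, log2 ratio -0.60), Müller glia (27.5 and 17.7, -0.63) and the neurogenic class (39.0 and 22.5, -0.79). In amacrine cells it stood higher, with 123 and 229 UMIs or 23.7 and 36.3 CPM, a log2 ratio of 0.62 (95% interval 0.30 to 0.95). That last call did not hold under a stricter amacrine gate or when ratios were centred on the median gene. The bipolar call of Slc16a3 did not hold under that centring either. With mitochondrial and ribosomal protein genes left out of the total, neither the bipolar nor the Müller glia call held.

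Pyruvate dehydrogenase kinases inhibit the complex that turns pyruvate into acetyl-CoA inside the mitochondrion. Pdk1 stayed within 1.5-fold in the 5 main classes where it was measured, for instance 40.4 and 30.1 CPM in bipolar cells. Pdk3 was lower in bipolar cells (22.3 and 13.8), amacrine cells (21.8 and 12.8, a call that did not hold under the stricter gate, with a log2 ratio of -0.51) and Müller glia (23.3 and 11.5). Its counts were small, 73 and 52 UMIs in Müller glia, and the log2 ratio there was -1.02 (95% interval -1.56 to -0.48).

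Of the 8 hypoxia targets, Ndrg1 was lower in 4 main classes and Bnip3 in 3, with bipolar cells the only class in common. Bnip3 was lower in bipolar cells, its top class in the control (232 and 113, log2 ratio -1.03), in Müller glia (135 and 77.5, -0.80) and in the neurogenic class (166 and 86.0, -0.95). Ndrg1, a stress-responsive cytosolic protein, was foremost a photoreceptor transcript here. Rods had 10074 and 4426 UMIs, levels of 716 (95% interval 702 to 729.9) in the control library and 459.6 (446 to 473) in the Mettl14-cKO library, a log2 ratio of -0.64. The rod ratio fell short of 1.5-fold when centred on the median gene (-0.58) and in barcodes with all 8 rod markers (-0.54). Ndrg1 was also lower in the cone gate, a call that did not hold when ratios were centred on the median gene. It was lower in bipolar cells (137 and 86.0) and in amacrine cells (38.1 and 22.0) as well. The amacrine log2 ratio was -0.79, but -0.34 under a stricter amacrine gate. Ndrg1 was not lower in Müller glia (59.4 and 50.3) or the neurogenic class (145 and 139.5). In amacrine cells 17.2 of the 38.1 CPM of the control, and 11.3 of the 22.0 of the Mettl14-cKO library, is what rod RNA would bring in proportion to the rod markers.

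Vegfa differed by class. In Müller glia, its highest main class, it gave 210.4 (95% interval 195 to 227) in the control library and 108 (98.4 to 118) in the Mettl14-cKO library, a log2 ratio of -0.96 (95% interval -1.14 to -0.79). The neurogenic class had 105 and 53.5 (-0.97). In rods the level was far smaller and stood higher in the Mettl14-cKO library, with 246 and 255 UMIs or 17.5 and 26.5 CPM (0.60), though 0.30 as a mean over cells, which is within 1.5-fold. Müller glia RNA in proportion to the markers would bring 3.24 and 6.62 CPM to rods. In bipolar and amacrine cells Vegfa stood at 70.7 and 58.6 and at 42.3 and 42.8, within 1.5-fold.

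Ddit4, a stress-induced brake on growth signalling, was the member that most often stood above the control. It was higher in rods (29.0 and 46.3 CPM, log2 ratio 0.68) and in Müller glia (112 and 317 UMIs, levels of 35.8 (95% interval 29.4 to 43.0) in the control library and 70.2 (62.7 to 78.3) in the Mettl14-cKO library, 0.97 (95% interval 0.66 to 1.30)). Its log2 ratio was above 0 in all 6 main classes where it was measured. P4ha1, a subunit of collagen prolyl hydroxylase, stayed within 1.5-fold in its 6 classes, for example 127 and 113 in Müller glia. Ankrd37, an ankyrin-repeat protein, was highest in bipolar cells and lower there (289 and 171, -0.76), and lower in ganglion cells on 55 and 53 UMIs (-0.73), a call that did not hold under a stricter gate (-0.51).

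Adm, the vasodilator peptide adrenomedullin, and Egln3, an oxygen sensor that marks the hypoxia-inducible factors for decay, were measured in none of the main classes. Egln3 gave 107 and 104 UMIs over all barcodes, the same level within counting error, and was densest in the small horizontal cell class (30 and 16 UMIs in 31 and 37 barcodes, 55.2 and 37.7 CPM). Adm gave 62 control and 215 Mettl14-cKO UMIs over all barcodes, 1.14 and 3.67 CPM, a log2 ratio of 1.69 (95% interval 1.28 to 2.12).

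Astrocytes, which lie outside the Cre lineage, held 103 of the 215 Mettl14-cKO UMIs of Adm. The astrocyte gate held 56 control and 98 Mettl14-cKO barcodes with median depths of 7557.5 and 6692 UMIs, and Adm gave 16 and 103 UMIs there. The levels were 36.7 (95% interval 21.0 to 59.6) in the control library and 166 (136 to 202) in the Mettl14-cKO library, a log2 ratio of 2.18 (95% interval 1.41 to 3.04). The UMIs came from 7 and 37 barcodes, with at most 3 and 6 in 1 barcode. Bipolar barcodes held 0 Adm UMIs in both libraries, which by the exact interval allows at most 0.575 and 0.982 CPM, so the astrocyte values are not a level shared by all droplets. A further 15 and 76 UMIs lay in barcodes that passed several gates.

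The other members showed no common direction in astrocytes. Of 15 measured, 1 was lower (Slc2a1, 236 and 129, -0.87) and 1 higher (Adm), beside 2.69% and 4.44% of all measured genes, and the members' median log2 ratio was -0.07. Astrocytes had the highest Aldoc of any class, 1420 and 1577 CPM, with no lower level in the Mettl14-cKO library (log2 ratio 0.15). They also had the highest Vegfa, 401 and 463 (0.21). Eno1 and Aldoa stood at 722 and 566 and at 1039 and 826 there, within 1.5-fold. In microglia, with 35 and 80 barcodes, 10 members were measured and 0 were lower or higher, where 4.91% of all measured genes were lower and 6.32% higher; their median log2 ratio was 0.21 and Eno1 was the only one of the 10 below 0. Whether astrocytes and microglia differ from Müller glia in these ratios was not tested.

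**Figure D5:**
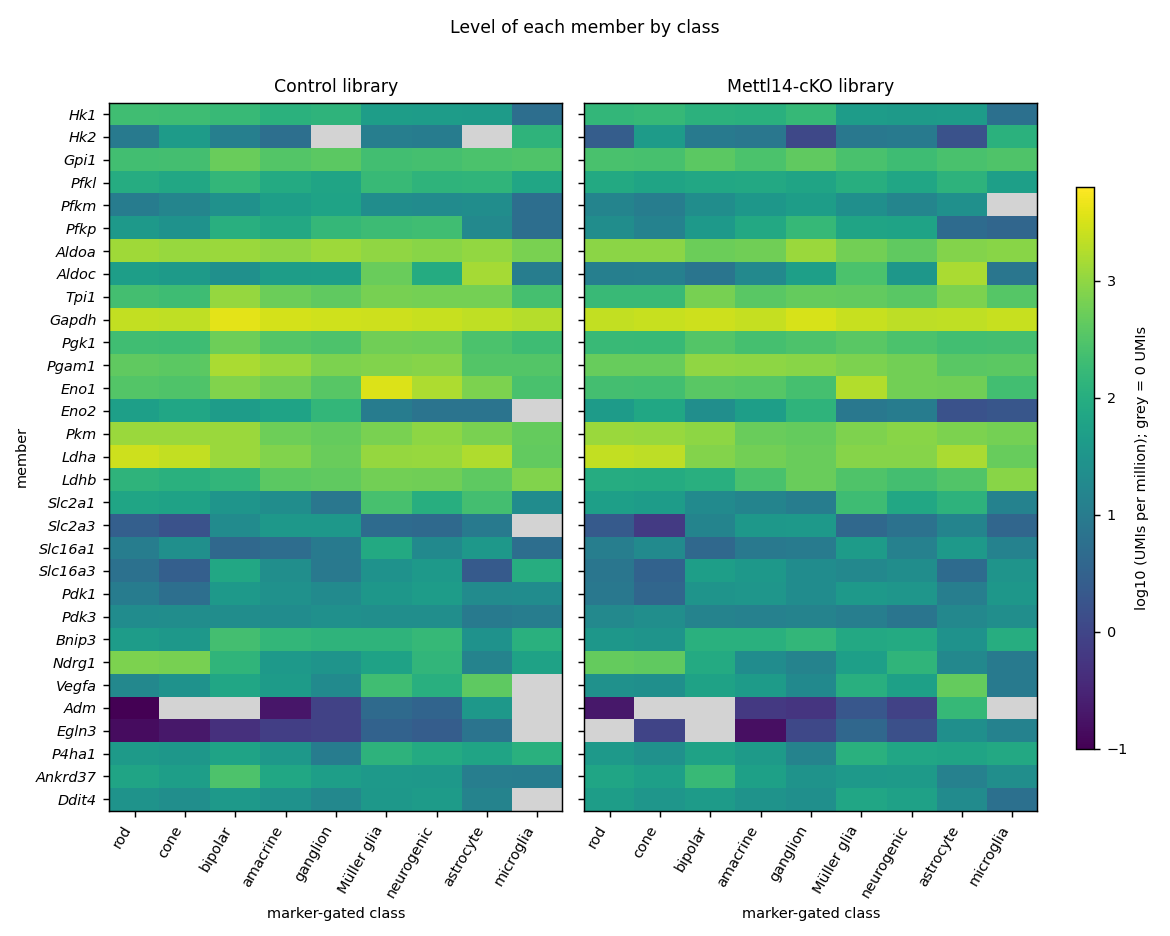
Level of each member (rows) in CPM, as colour on a log10 scale, in 7 main classes, astrocytes and microglia (columns), for the control (left) and Mettl14-cKO (right) library; grey marks 0 UMIs. Aldoc and Vegfa are brightest in astrocytes and Müller glia, Eno1 in Müller glia, Ldha and Ndrg1 in rods and the cone gate, and Tpi1, Ankrd37 and Bnip3 in control bipolar cells.

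Of the 31 members, 21 had the same top main class in both libraries. Among members with UMIs in every main class of the control library, Slc2a1 varied most, 32.1-fold from Müller glia to ganglion cells (on 9 UMIs), and Pdk3 least, 1.203-fold.

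Genes around the pathway were read from 6 further lists of 91 genes in all, chosen with earlier results of these data known. In bipolar cells 12 of 49 measured genes of these lists were lower and 5 higher, beside 10.0% and 10.2% of all measured genes. In Müller glia 9 of 47 were lower and 3 higher (8.51% and 14.6% of all), and in the neurogenic class 9 of 35 and 2 (9.96% and 13.9%). Rods had 7 of 53 lower and 6 higher (10.1% and 11.5%) and amacrine cells 0 of 51 and 3 (4.59% and 9.34%), shares near or below those of all genes. In bipolar cells Pgm1, a phosphoglucomutase of glycogen turnover, was among the lower genes (-0.96). In Müller glia the lowest were Bsg, the chaperone of the lactate carriers (-1.32 on 4290 and 2481 UMIs), and Ugp2, which makes the sugar donor of glycogen (-1.07). In the neurogenic class they were Hkdc1, a further hexokinase (-1.58), and Plod2, a collagen lysyl hydroxylase (-1.14), and in rods Tfrc, the transferrin receptor (-1.02), and Eno3, the muscle enolase (-0.87).

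Some genes of these lists went the other way. Bpgm, which diverts the triose path to bisphosphoglycerate, was higher in all 7 main classes, with log2 ratios from 0.66 to 0.94. Cited2, a competitor of the hypoxia factors for their coactivator, was higher in rods (0.83), the cone gate (0.69), Müller glia (1.254) and the neurogenic class (1.31). Pck2, a mitochondrial enzyme of gluconeogenesis, was higher in rods (0.86), bipolar cells (0.77) and Müller glia (1.69). In rods Slc16a8, a lactate carrier typical of pigment epithelium, gave 109 and 523 UMIs (2.81), and Pygm, the muscle glycogen phosphorylase, 32 and 236 UMIs (3.43).

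Among the 13 genes of the oxygen-sensing machinery, Hif1a and Arnt, the subunits that together form the hypoxia-inducible factor, were lower in rods and bipolar cells. Hif1a had log2 ratios of -0.82 in rods, on 12598 and 4882 UMIs, and -0.60 in bipolar cells, and Arnt -0.76 and -0.60. In Müller glia the one of 11 measured genes of this list that was lower was Epas1, a further oxygen-labile subunit (-0.97), and in the neurogenic class 0 of 8 were lower. Hif1a, Arnt and Epas1, and Bpgm, Cited2 and Pck2 in some of the classes given, were picked for naming after their values were seen.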

How the data were processed

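Single-cell 3′ RNA libraries of P7 retina were compared, 1 control and 1 Mettl14-cKO. The deposited matrices hold raw UMI counts per gene and barcode, which the authors made with Cell Ranger 6.1.1 on mm10, per the submitters' processing notes; such 3′ tags count transcript ends and need no length scaling. The control library held 13287 barcodes with 55921787 UMIs and the Mettl14-cKO library 15319 with 59856468, and no barcode fell under 500 UMIs in either. Barcodes with at least 1000 UMIs were kept and gated on 14 marker lists by the number of markers with a UMI (rod 6 of 8, cone 4 of 9, bipolar 4 of 12, amacrine 3 of 9, ganglion 4 of 8, Müller glia 5 of 12, neurogenic 3 of 9, astrocyte 3 of 6, microglia 4 of 9); these minimums were set after marker counts were seen. Barcodes passing several gates were left out, apart from related pairs given to the more specific class. Scrublet (in scanpy 1.11.5) marked 6.84% and 9.35% of barcodes as doublets; they stayed in and were left out as an alternative. UMIs of a class were added up within each library and expressed as CPM; exact 95% intervals came from scipy 1.17.1. The summing and calling steps were tested on simulated counts. All 31 members are named; of the further pathway lists at most the 2 lowest and 2 highest genes of a class past 1.5-fold are named, apart from exceptions stated. Members, lists and classes were chosen with earlier results of these data known. Gene positions are from GENCODE and promoter windows from RefSeq, both on GRCm38. Alternatives covered scaling, cell filters, gates, thresholds and the weight of cells. Raw reads were not analysed here.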

Additional observations from a re-analysis of the deposited data

Results flagged for a closer look

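The lactate exporter Slc16a3 stood on opposite sides of the control in different classes. Its log2 ratio of Mettl14-cKO over control was -0.60 in bipolar cells, -0.63 in Müller glia and -0.79 in the neurogenic class, and 0.62 in amacrine cells, with counting intervals clear of 0 in each. The bipolar and amacrine calls did not hold when ratios were centred on the median gene. With mitochondrial and ribosomal protein genes left out of the total, the bipolar and Müller glia calls did not hold. The difference between classes was not tested, since each genotype has 1 library.

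Vegfa was likewise lower in Müller glia (-0.96) and the neurogenic class (-0.97) and higher in rods (0.60), a difference that was not tested either. With the mean over cells in place of the sum, the rod value was 0.30, which is within 1.5-fold.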

How the results depend on the processing

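There were 7 alternatives that kept the 1.5-fold rule and the 100-UMI minimum (other scalings, filters, a stricter gate, doublets left out, the mean over cells). Under them the members lower numbered 14 to 16 in bipolar cells, 11 to 13 in Müller glia, 10 to 11 in the neurogenic class and 3 to 4 in rods. The shares of all measured genes lower were 8.80% to 10.2%, 7.07% to 9.71%, 8.30% to 10.1% and 8.15% to 10.2% in the same order. The log2 ratios of the 5 lowest and 3 highest measured members, in each main class and over all barcodes, were recomputed under these alternatives. They were also recomputed under the splits of neurogenic, bipolar and rod barcodes chosen after the data were seen. Other ratios given in the text are not among the recomputed values counted here. Of the 488 values so obtained, 452 stayed within the counting interval of their main ratio. Among neurogenic barcodes that did not pass the Müller glia gate, 6 left it and 2 stayed. None of the called ratios among those recomputed changed sign.

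Shares in brackets are those of all measured genes under the same rule. At the looser fold threshold tried the members lower were 16 over all barcodes (22.1%), 12 in rods (24.9%), 8 in cones (24.4%), 14 in amacrine cells (14.2%), 3 in ganglion cells (12.6%) and 4 in astrocytes (11.6%), and those higher 2 over all barcodes (22.9%), 4 in rods (20.9%), 1 in cones (16.3%), 1 in the neurogenic class (25.6%) and 4 in microglia (19.2%). At 2-fold, the stricter one, lower were 0 over all barcodes (3.28%), 2 in rods (2.65%), 5 in bipolar cells (3.20%), 1 in amacrine cells (1.32%), 0 in ganglion cells (0.256%), 2 in Müller glia (2.85%), 6 in the neurogenic class (2.91%) and 0 in astrocytes (0.350%), and higher were 0 in rods (4.74%), amacrine cells (2.45%) and Müller glia (5.08%). A minimum of 30 UMIs gave 2 of 29 measured members higher in amacrine cells (11.5%) and 1 of 15 lower in microglia (11.8%). In ganglion cells that minimum gave 3 of 26 lower (6.89%) and 1 higher (9.62%). A minimum of 300 UMIs gave 0 of 29 higher over all barcodes (10.5%) and 1 of 17 lower in cones (6.63%). At 300 UMIs 0 of 14 were lower in ganglion cells (about 1%), and of 10 in astrocytes 0 were lower (3.12%) and 0 higher (2.20%). The mean over cells gave 1 higher in rods (10.9%), 1 higher in cones (7.70%) and 3 lower in ganglion cells (5.62%). Centring on the median gene gave 0 higher in amacrine cells (8.19%). The stricter gate gave 4 lower (4.44%) and 0 higher (8.65%) in amacrine cells and 0 lower in ganglion cells (3.07%). The control's mix of classes gave 7 lower over all barcodes, a setting for which the share of all genes was not computed.

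Under the stricter gate the paralog shares that left their interval were Aldoc in ganglion cells (control 5.58%, Mettl14-cKO 5.25%) and neurogenic control cells (6.90%), Ldhb in amacrine control cells (31.8%) and neurogenic cells (control 37.8%, Mettl14-cKO 24.0%), Pfkp in neurogenic control cells (62.8%) and Eno2 in neurogenic Mettl14-cKO cells (1.14%). For gates and cell weights the cause was not tested; thresholds and minimums change what is counted. No paired analysis was possible because each genotype has 1 library and the labels carry no replicate numbers. In ganglion cells, astrocytes and microglia only 19, 15 and 10 of the 31 members reached 100 UMIs, so differences there were often not detectable at this depth.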
